A study of Homo sapiens with 3 samples.

Results

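The genes described here are the 5 neuronal intermediate filament genes: NEFL, NEFM and NEFH, which encode the light, medium and heavy neurofilament subunits, INA, which encodes alpha-internexin, and PRPH, which encodes peripherin. They were taken by symbol from the 33538 genes of the count matrices, where each symbol occurred once. Their transcripts were counted by single-cell RNA-seq of blood vessel organoids, 3-dimensional cultures made from the established human embryonic stem cell line H1. In all organoids a NEUROD1-P2A-GFP cassette under doxycycline control had been integrated by PiggyBac transposon, all were sampled at day 45, and all received the neurotrophic factors BDNF and NT-3 from day 15. The 3 libraries, 1 per group, came from organoids with no NEUROD1 induction, with 15 days of induction and with 45 days of induction by doxycycline at 1 µg/ml. Which 15 of the days were induced is not stated. Each library pooled 5 to 6 organoids, so a group was 1 sample: differences between groups have no replicate check, no test was run, and every 95% interval below covers counting error only.

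Neurofilaments are the main intermediate filaments of axons, where they set axon calibre. NEFL forms the core of the filament, NEFM and NEFH add long side arms, and INA and PRPH co-assemble with them, INA mainly in central and PRPH mainly in peripheral neurons. NEUROD1 is a basic helix-loop-helix transcription factor that drives neuronal differentiation and binds E-box motifs (CANNTG).

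The 5 genes lie at 4 places in the genome (GRCh38, GENCODE 29). NEFL, with 4 exons and a protein of 543 residues, is on the minus strand at chr8:24950955-24957110. NEFM, with 3 exons and 916 residues, is its neighbour on the plus strand at chr8:24913012-24919098. The other members are all on plus strands: NEFH (4 exons, 1020 residues) at chr22:29480230-29491390, INA (3 exons, 499 residues) at chr10:103277163-103290351 and PRPH (9 exons, 470 residues) at chr12:49293252-49298686. NEFL, NEFM, NEFH and PRPH each overlap an annotated antisense gene, and whether the counting used strand is not given in the sources used here. The antisense genes had few UMIs: in neuron-like cells the highest level was that of AF106564.1, which overlaps NEFM, at 6.38 CPM (UMIs of the gene relative to all UMIs of the group, in the usual CPM unit) at 15 days and 14.5 at 45 days.

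The libraries held 10232 barcodes and 59879923 unique molecular identifiers (UMIs) without induction, 5962 and 49488425 at 15 days, and 10765 and 64171327 at 45 days. After removal of low-quality barcodes and predicted doublets, 8133, 5050 and 8813 cells were left, with medians of 5137, 7302 and 5555 UMIs per cell. Between 13 and 33 barcodes were shared by a pair of libraries. The NEUROD1 gene was counted at 1.53, 1.46 and 42.5 CPM; because GFP follows NEUROD1 in the cassette, a 3′ tag of the transgene need not fall in the NEUROD1 gene, and these values do not check the labels.

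The promoter sequence of 2 of the 5 members, INA and PRPH, was matched in the RefSeq promoter table. The 250 bases before the INA start are shown, whereas the PRPH window is not printed because it overlaps an annotated exon. E-boxes were searched because they are the motif that NEUROD1 binds. The INA run is at chr10:103276888-103277137 on the plus strand of GRCh38.p14, and the capitals mark the E-boxes CAGATG and CAGCTG.
INA: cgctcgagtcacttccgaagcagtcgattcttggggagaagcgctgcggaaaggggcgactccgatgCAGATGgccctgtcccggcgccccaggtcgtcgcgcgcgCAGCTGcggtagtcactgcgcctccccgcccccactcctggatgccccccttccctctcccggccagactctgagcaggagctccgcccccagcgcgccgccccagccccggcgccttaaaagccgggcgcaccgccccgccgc
CAGATG begins 183 bases and CAGCTG 144 bases before the start. Searched on both strands over windows of the same length, CAGATG was present in 12.2% and CAGCTG in 14% of 35116 promoters. GC content of the INA window was 72.8%, against a median of 58.0% over those promoters. The PRPH window (66.8% GC) held TATAAA 31 bases before its start, a motif found in 10.7% of promoters, and neither E-box. It is at chr12:49294897-49295146, inside the gene span given above, and overlaps an exon of 1 annotated transcript. These matches describe the letters in the windows and do not show binding.

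Over all cells, filament transcripts were rare without induction and common in both induced libraries. NEFL had 523 UMIs without induction, or 10.4 CPM (9.54 to 11.3). Its 37391 UMIs in the 15-day library made 830 CPM (821 to 838), and its 17253 UMIs in the 45-day library 317 CPM (312 to 321). NEFM had 4109 UMIs and 81.8 CPM (79.3 to 84.4) without induction, then 1309 (1299 to 1320) at 15 and 461 (455 to 467) at 45 days. For both subunits the library with 15 days of induction was highest and the uninduced library lowest, and no intervals overlapped. NEFH, the heavy subunit that accumulates late in axon maturation, was low in all libraries, at 7.15 CPM (6.43 to 7.93), 15.1 CPM (14.0 to 16.3) and 8.79 CPM (8.02 to 9.62). INA had 5 UMIs in the whole uninduced library, or 0.0996 CPM (0.0323 to 0.232). Its 15-day level was 71.4 CPM (69.0 to 73.9) and its 45-day level 35.3 CPM (33.7 to 36.9). PRPH had 82 UMIs and 1.63 CPM (1.30 to 2.03), then 352 CPM (347 to 358) and 108 CPM (105 to 111). Every member had the same order of libraries, 15 days above 45 days above no induction.

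The size of the difference varied widely among members. At 15 days against no induction, INA was 717-fold (307 to 2211), PRPH 216-fold (174 to 271), NEFL 79.7-fold (73.1 to 87.0), NEFM 16.0-fold (15.5 to 16.5) and NEFH 2.11-fold (1.86 to 2.41) higher. INA and PRPH, with the fewest uninduced UMIs, had the largest ratios, while NEFH, with 359 uninduced UMIs, had the smallest. At 45 days the order of the members was the same: INA 354-fold (152 to 1092), PRPH 66.1-fold (53.2 to 83.2), NEFL 30.4-fold (27.9 to 33.2), NEFM 5.63-fold (5.45 to 5.82) and NEFH 1.23-fold (1.07 to 1.41). The INA ratios rest on the 5 uninduced UMIs, which their wide intervals reflect. The 2 induced libraries were each set against the same uninduced library. From 15 to 45 days the levels over all cells were 0.307-fold for PRPH, 0.352-fold for NEFM, 0.382-fold for NEFL, 0.494-fold for INA and 0.582-fold for NEFH.

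**Figure D1:**
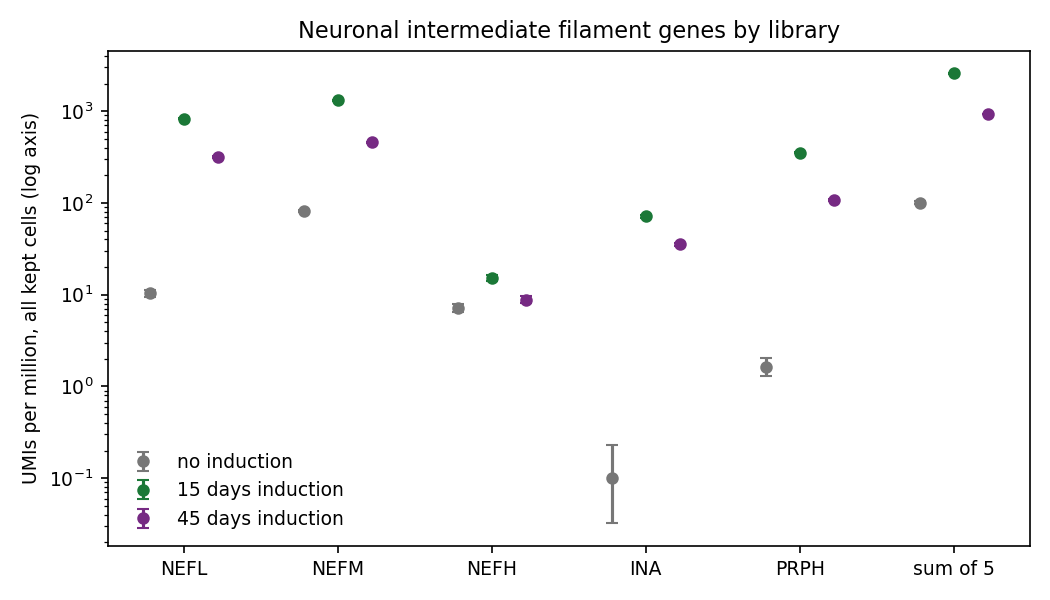
Level of each of the 5 genes over all kept cells in the 3 libraries, in CPM on a log axis, with exact Poisson 95% intervals. NEFL, NEFM, INA and PRPH are far higher in both induced libraries than without induction, whereas NEFH stays between 7.15 and 15.1 CPM.

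To read the members against all genes, 5 CPM were added to each level and only genes that reached 50 CPM in either group were considered. At 15 days against no induction, 4 of the 5 members reached that floor (NEFL, NEFM, INA and PRPH) and all 4 were at least 4-fold higher, as were 1.55% of all genes at the floor. At 45 days, NEFL, NEFM and PRPH reached it and all 3 were at least 4-fold higher, against 0.48% of genes. NEFL, INA and PRPH were below the floor without induction, so those that passed did so through the induced library and had to differ. For 45 against 15 days, NEFL, NEFM and PRPH, 3 of the 4 members at the floor, were at least 2-fold lower, against 1.97% of genes, and INA was lower by less. The median over all genes at the floor was 0.16 (15 days against none), 0.09 (45 days against none) and -0.05 (45 against 15 days) on the log2 scale.

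Most filament transcripts of the induced libraries were in a small class of neuron-like cells. The 5 genes were left out of the variable genes and markers that defined it. The thresholds for naming clusters were, however, set after the cluster levels of the 5 genes had been seen. The class comprised 302 cells (5.98%) at 15 days and 295 cells (3.35%) at 45 days, and all 15 neuron markers were at 1 CPM or more in both libraries. Without induction there were 0 such cells among 8133, which allows a share of up to 0.0369%. A level over all cells does not separate the number of neuron-like cells from the filament RNA in each. The class held 2 clusters. The leading genes of cluster 20 included NEUROD1, INSM1, NHLH1 and HES6, genes of newly formed neurons, and ELAVL3, a general neuron marker. The others were HRK, PDLIM3, AP000459.2, PPP1R27 and GKAP1. At 15 days the first 4 rested on 34, 12, 21 and 20 UMIs. Cluster 20 had 124 cells at 15 days (median 2036 UMIs) and 186 cells at 45 days (3433 UMIs). Cluster 21 was led by the filament genes NEFL and PRPH, with INA and NEFM also among its leading genes. Beside them were RTN1, STMN4, NRN1 and ELAVL4, genes of differentiating neurons. Cluster 21 had 178 cells (25510 UMIs) and 109 cells (18575 UMIs). Cluster 21 held 92.9% of the neuron-like UMIs at 15 days and 76.3% at 45 days.

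Within neuron-like cells the filament genes together made up 20103 CPM at 15 days and 14559 CPM at 45 days. NEFL was at 6667 and 5406 CPM, 143-fold and 178-fold its level in all other cells of the same library. NEFM was at 9966 and 6623 CPM, 67.5-fold and 57.9-fold the other cells. NEFH reached 70.7 and 38.6 CPM, 9.24-fold and 5.43-fold. The heavy subunit was thus the member with the smallest excess in neuron-like cells in both libraries. INA was at 580 and 627 CPM, 181-fold and 320-fold the other cells, and PRPH at 2820 and 1864 CPM, 134-fold and 204-fold. All 5 members were at least 2-fold higher in neuron-like cells at 15 days, as were 25.9% of genes at the 50 CPM floor. At 45 days NEFH was below the floor and the other 4 were at least 2-fold higher, against 28% of genes. Apart from NEFM, the members passed the floor only through the neuron-like cells where they are high.

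The neuron-like share of each member's UMIs separated the genes further. Neuron-like cells held 96.1% of INA UMIs at 15 days and 94.7% at 45 days, 95% and 90.9% of NEFL, and 94.7% and 92.0% of PRPH. NEFM was less concentrated at 45 days, when the class held 76.5% of its UMIs. Of NEFH UMIs, 55.4% and 23.4% were in neuron-like cells, so most NEFH counts at 45 days came from other cells.

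**Figure D2:**
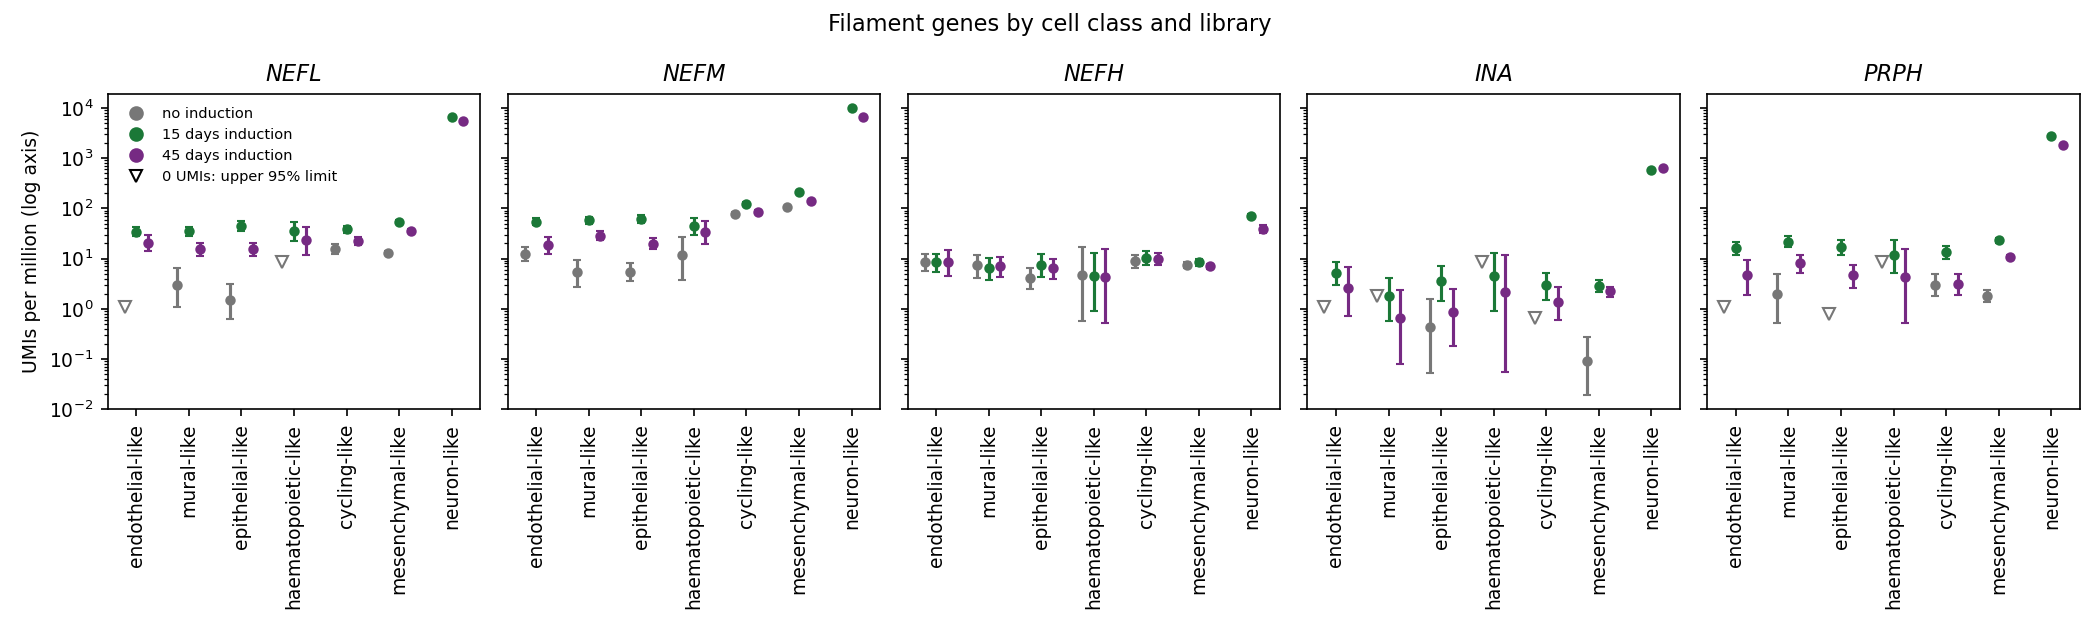
Level of each of the 5 genes by marker-defined cell class in the 3 libraries, with the hepatocyte-like class not shown. Values are in CPM on a log axis with exact Poisson 95% intervals, and open triangles are at the upper limit where there were 0 UMIs. Neuron-like cells exist only in the induced libraries and are highest for every gene, while NEFM in mesenchymal-like cells is at 108, 213 and 143 CPM.

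From summed UMIs, the members differed little or moderately within the neuron-like class between 45 and 15 days. INA was 1.08-fold (1.02 to 1.15), NEFL 0.811-fold (0.796 to 0.826), NEFM 0.665-fold (0.654 to 0.676), PRPH 0.661-fold (0.641 to 0.682) and NEFH 0.546-fold (0.438 to 0.676). The direction for INA depended on the weighting: it was 0.11 on the log2 scale from summed UMIs and -0.24 as a mean over cells. None of the 5 was at least 2-fold lower once 5 CPM were added, against 1.4% of all genes at the floor. The sum of the members was 0.724-fold, compared with 0.361-fold over all cells. Such sums weigh deep cells most, and cluster 21 held 92.9% of the neuron-like UMIs at 15 days and 76.3% at 45 days. Per cell the difference was larger. The median share of a neuron-like cell's UMIs from the 5 genes was 1.69% at 15 days and 0.480% at 45 days.

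The 2 neuron-like clusters differed from each other in this comparison. In cluster 21, NEFL was at 6928 CPM at 15 days and 6764 CPM at 45 days (0.976-fold), and NEFM at 10435 and 8409 CPM (0.806-fold). PRPH was at 2916 and 2170 CPM (0.744-fold), NEFH at 73.9 and 45.6 CPM (0.618-fold, 0.491 to 0.772) and INA at 603 and 759 CPM (1.26-fold, 1.18 to 1.34). None of the 5 was at least 2-fold lower there, against 1.09% of genes. In cluster 20, by contrast, NEFL was at 3223 and 1037 CPM (0.322-fold) and NEFM at 3783 and 874 CPM (0.231-fold). The 2 neurofilament subunits that build and decorate the filament core were the members at least 2-fold lower in cluster 20, 2 of 4 at the floor, against 4.31% of genes. PRPH was at 1546 and 881 CPM (0.570-fold) and INA at 271 and 204 CPM (0.751-fold, 0.578 to 0.979). NEFH had 11 UMIs in cluster 20 in each library, or 29.2 and 16.0 CPM, a ratio of 0.547 whose interval of 0.215 to 1.39 includes 1. The members' sum was 0.866-fold in cluster 21 and 0.340-fold in cluster 20.

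The cells of cluster 20 also differed between the libraries in the genes that define it, which bears on this comparison. NEUROD1 was at 90.3 CPM (34 UMIs) in cluster 20 at 15 days and 1281 CPM (881 UMIs) at 45 days. NEUROD1 is also the gene of the induced cassette, and over all kept cells it was at 1.46 and 42.5 CPM, with 2316 UMIs at 45 days. Whether its counts include cassette transcripts was not tested. HES6, a regulator of early neurogenesis, was at 53.1 and 375 CPM, and INSM1, a factor of newly formed neurons, at 31.9 and 204 CPM. General neuron markers of the same cells lay closer together but did not all go the same way. STMN2, a microtubule regulator of growing axons, was at 2184 and 1768 CPM, DCX at 385 and 359 CPM and ELAVL3 at 351 and 323 CPM. Higher at 45 days were GAP43 at 542 and 833 CPM, SYT1 at 276 and 337 CPM and SLC17A6 at 82.4 and 150 CPM. The 14 neuron markers at the floor had a median log2 difference of -0.01. Of them 2 were at least 2-fold higher at 45 days, as were 205 of 4011 genes at the floor. Cluster 20 was thus lower in NEFL and NEFM and higher in HES6, INSM1 and NEUROD1 at 45 days. Whether it holds the same kind of cell in both libraries was not tested.

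As a result cluster 21 exceeded cluster 20 by more at 45 days than at 15 days for 4 of the members. The ratio of cluster 21 to cluster 20 was 2.15 and 6.52 for NEFL, 2.76 and 9.62 for NEFM, 2.23 and 3.73 for INA and 1.89 and 2.46 for PRPH at 15 and 45 days. For NEFH it was 2.53 (1.40 to 5.11) and 2.85 (1.53 to 5.90), and these intervals overlapped almost wholly. The proportions among members moved with this. In cluster 20 there were 2.45 NEFM UMIs per PRPH UMI at 15 days and 0.992 at 45 days, whereas cluster 21 had 3.58 and 3.88. NEFM per NEFL was 1.17 and 0.843 in cluster 20 and 1.51 and 1.24 in cluster 21. The cells of cluster 20 had a lower depth than those of cluster 21, and the part of depth in these differences was not tested.

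Cell by cell, the 5 genes took at most 4.58% of the UMIs of a cluster 21 cell. Their median share of a cell's UMIs was 1.93% at 15 days, with cells from 0.139% to 3.79%, and 1.63% at 45 days, from 0.135% to 4.58%. In cluster 20 the median was 1.09% at 15 days and 0.191% at 45 days, and 1 and 22 cells had none of the 5. Within cluster 21 the share had a Spearman correlation with the cell's depth of 0.374 (178 cells) and 0.314 (109 cells), and within cluster 20 of -0.238 (124 cells) and -0.133 (186 cells); the cells of each value share a library and the depth enters both measures. Outside the neuron-like class the highest share in any cell was 0.542% without induction, 0.767% at 15 days and 1.02% at 45 days.

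**Figure D3:**
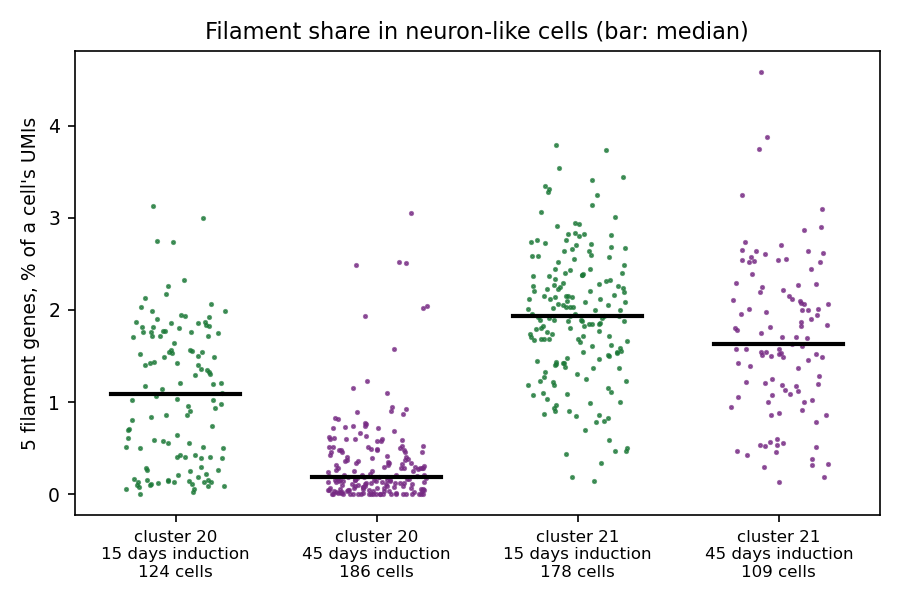
Share of each neuron-like cell's UMIs that came from the 5 filament genes, in percent, for clusters 20 and 21 in the 2 induced libraries, with each point a cell and each bar the median. The cluster 21 medians are 1.93% and 1.63%, and those of cluster 20 are 1.09% and 0.191%.

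The shares of cells with at least 1 UMI were compared after each cell was thinned to 2000 UMIs, which left out 62 of 302 and 63 of 295 neuron-like cells as too shallow. NEFL was then found in 93.8% (89.9 to 96.5) of neuron-like cells at 15 days and 78.0% (72.1 to 83.2) at 45 days. NEFM was found in 93.8% and 73.7%, PRPH in 89.6% and 67.2%, INA in 61.3% and 52.6% and NEFH in 8.33% and 6.03%. At least 1 of the 5 was found in 99.2% (97.0 to 99.9) at 15 days and 89.7% (85.0 to 93.3) at 45 days; unthinned, the shares were 99.7% and 92.5%. In endothelial-like cells at least 1 was found in 24.6% of 297 thinned cells at 15 days and 5.98% of 184 at 45 days, with 23 and 37 cells left out. Without induction it was 3.55% of 394 endothelial-like cells, with 52 left out. Averaged over all possible draws of the thinning, these endothelial-like shares were 20.8%, 9.04% and 4.03%. Before thinning, the neuron-like medians were 9835.5 UMIs per cell at 15 days and 5154 at 45 days. The endothelial-like medians were 8529, 6134 and 6723 (without induction). NEFH had a mean of 0.0958 and 0.0647 UMIs per thinned cell, and no change was read from its shares.

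The cells left out were from cluster 20, all but 1 of them, so that 63 of its 124 cells at 15 days and 123 of its 186 at 45 days were compared. There NEFL was found in 81.0% and 59.3% of thinned cells, NEFM in 79.4% and 52.8%, PRPH in 73.0% and 49.6% and INA in 47.6% and 30.9%. In cluster 21, where NEFL was found in 98.3% and 99.1% and NEFM in 98.9% and 97.2%, INA was found in 66.1% and 77.1% and PRPH in 95.5% and 87.2%. The shares at 45 days were thus lower in cluster 20 for all 4 of these genes, and in cluster 21 for PRPH and slightly for NEFM.

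Individual cells usually held several members at once. Of 240 thinned neuron-like cells at 15 days, 12 had all 5 genes, 124 had 4, 81 had 3, 12 had 2, 9 had 1 and 2 had none. Of 232 at 45 days, 5 had all 5, 92 had 4, 56 had 3, 28 had 2, 27 had 1 and 24 had none. NEFL and NEFM, which polymerise together, were both found in 216 of 240 and 155 of 232 cells. Their thinned counts had a Spearman correlation across these cells of 0.592 and 0.822, and those of NEFM and PRPH of 0.311 and 0.427. The cells of each value share a library and include both clusters, so the difference between clusters enters them.

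Without induction the filament transcripts that were present lay in non-neuronal cells, and 4109 of the 5078 UMIs, which count 3′ tags, were NEFM. That gene was at 108 CPM (104 to 112) in mesenchymal-like cells and 78.7 CPM in cycling cells, but at 12.4 CPM (8.92 to 16.7) in endothelial-like, 11.8 CPM in haematopoietic-like, 5.46 CPM in epithelial-like and 5.36 CPM in mural-like cells. Mesenchymal-like cells held 84.5% of its UMIs. The ratio of mesenchymal-like to endothelial-like cells was 8.71 (6.43 to 12.1). The endothelial-like value rested on 42 UMIs, of which 13 were in 1 cell and 38 in cluster 18; the ratio was 63.7 without that cluster and 12.5 without the top cell of each class. With no doublet removal it was 5.48. NEFM had UMIs in 1401 uninduced cells, with no more than 20 in any cell. After thinning, 13.1% of 5701 mesenchymal-like cells had NEFM, against 2.54% of 394 endothelial-like cells.

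The mesenchymal-like clusters were not alike. NEFM was highest in cluster 0 at 185 CPM, cluster 8 at 174 CPM and cluster 2 at 172 CPM, and was at 124 CPM in cluster 5 and 94.8 CPM in cluster 1. The lowest mesenchymal-like clusters were 14 and 15, at 14.8 and 13.4 CPM. NEFL was also found in mesenchymal-like cells, at 12.9 CPM over the class and 15.6 CPM in cycling cells, and at 38.3 CPM in cluster 2 and 26.3 CPM in cluster 0. The 26.6 CPM in cluster 11 rested on 8 UMIs, 7 of them in 1 cell. No NEFL UMI was found in the 446 endothelial-like cells, so the mesenchymal-like level was at least 14.6-fold higher against a floor of 3 UMIs over the endothelial-like class. The lower 95% limit of the ratio from the counts themselves was 11.8. Of the 137 thinned mesenchymal-like cells with NEFL, 91 also had NEFM, among 5701 cells. NEFM per NEFL was 8.37 (7.56 to 9.29) in these cells, against 1.49 and 1.22 in neuron-like cells of the induced libraries. INA (5 UMIs) and PRPH (82 UMIs, 58 of them in mesenchymal-like cells) were nearly absent.

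**Figure D4:**
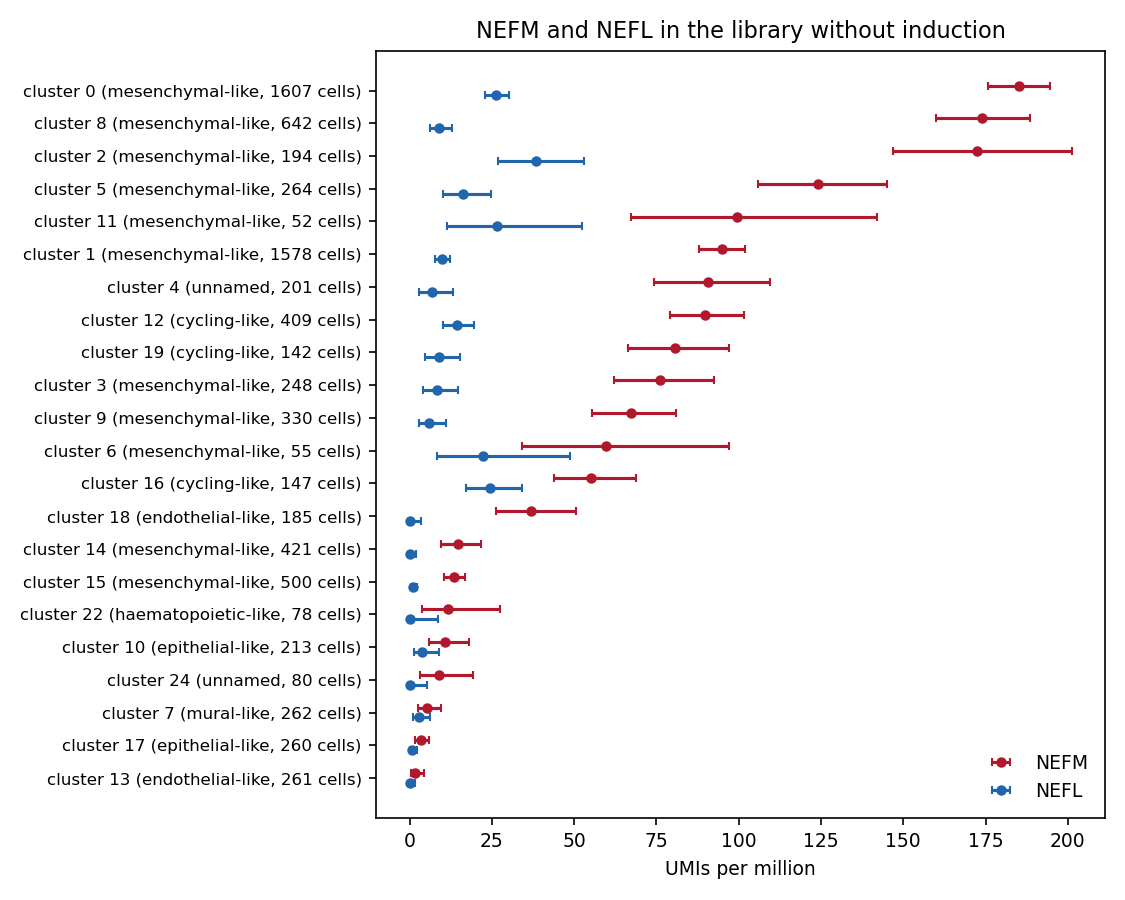
Level of NEFM and NEFL in the clusters of the uninduced library, in CPM with exact Poisson 95% intervals, for clusters of at least 20 cells. NEFM runs from 1.69 CPM in cluster 13 to 185 CPM in cluster 0, and NEFL reaches 38.3 CPM in cluster 2.

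In the induced libraries the summed filament level was higher than without induction in each of 6 non-neuronal classes, although in cycling cells at 45 days (121 CPM, 112 to 131) the interval overlapped the uninduced one (106 CPM, 97.8 to 115). The hepatocyte-like class was not among these 6, as it had 4 cells without induction and 0 at 45 days. Its 194 cells at 15 days had 143 CPM (486 UMIs, 144 of them in 1 cell), with PRPH at 27.6 CPM and INA at 5.87 CPM. Over all cells outside the neuron-like class, the ratio to the uninduced library at 15 and 45 days was 32.1 and 19.7 for INA, 12.9 and 5.60 for PRPH, 4.48 and 2.92 for NEFL and 1.81 and 1.40 for NEFM. The order of the members was thus the same as over all cells. NEFM in mesenchymal-like cells was at 213 CPM at 15 days and 143 CPM at 45 days, against 108 CPM without induction. Most of these cells were in clusters 0 and 1 without induction (1607 and 1578 of 5891), in clusters 2, 11 and 0 at 15 days (630, 422 and 337 of 2542) and in clusters 3, 2 and 6 at 45 days (1393, 1092 and 811 of 6133). Within cluster 0, NEFM was at 185, 416 and 319 CPM in the uninduced, 15-day and 45-day libraries, and within cluster 2 at 172, 182 and 150 CPM. In cluster 1 it was at 94.8, 196 and 42.8 CPM, where the 15-day value rested on 37 UMIs over 30 cells. The uninduced library was thus the lowest in cluster 0, but not in clusters 1 and 2. In cluster 2 the uninduced interval (147 to 201) overlapped those of both induced libraries. NEFM in endothelial-like cells was at 53.9 and 18.5 CPM, in mural-like cells at 57.5 and 28.8 CPM and in epithelial-like cells at 61.7 and 20.0 CPM. NEFL was at 34.6 and 20.5 CPM in endothelial-like, 35.0 and 15.4 CPM in mural-like, 44.6 and 15.3 CPM in epithelial-like and 54.2 and 36.2 CPM in mesenchymal-like cells. PRPH was at 23.0 and 10.9 CPM in mesenchymal-like and 16.1 and 4.63 CPM in endothelial-like cells, and INA at 2.84 and 2.22 CPM and at 5.25 and 2.65 CPM.

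Set against the neuron-like level, the summed level of the members outside the class was 1.13% at 15 days and 1.12% at 45 days, or 1.71% and 2.14% as a mean over cells. By gene, the level outside the neuron-like class was 0.699% and 0.563% of the neuron-like level for NEFL at 15 and 45 days, 0.745% and 0.491% for PRPH, 0.551% and 0.312% for INA and 1.48% and 1.73% for NEFM. For the 15 neuron markers the same measure ran from 0.368% to 14.2% (median 1.84%) at 15 days and from 0.288% to 10.3% (median 1.49%) at 45 days. SYT1 and STMN2, which were also counted without induction at 19.5 and 135 CPM, were at the high end. In endothelial-like cells the percentages were 0.519% and 0.379% for NEFL, 0.541% and 0.280% for NEFM, 0.571% and 0.248% for PRPH, 0.905% and 0.422% for INA and 11.9% and 22.3% for NEFH. At 15 days NEFL, NEFM and PRPH were thus close to each other, and NEFH was far higher in both libraries. NEFM per NEFL there was 1.56 (1.20 to 2.02) and 0.903 (0.522 to 1.56), with intervals that include the neuron-like 1.49 and 1.22. In mesenchymal-like cells it was 3.93 and 3.94, between the neuron-like value and the uninduced mesenchymal-like value of 8.37. RNA from broken cells enters other droplets in this capture, and its part in the non-neuronal levels was not tested.

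**Figure D5:**
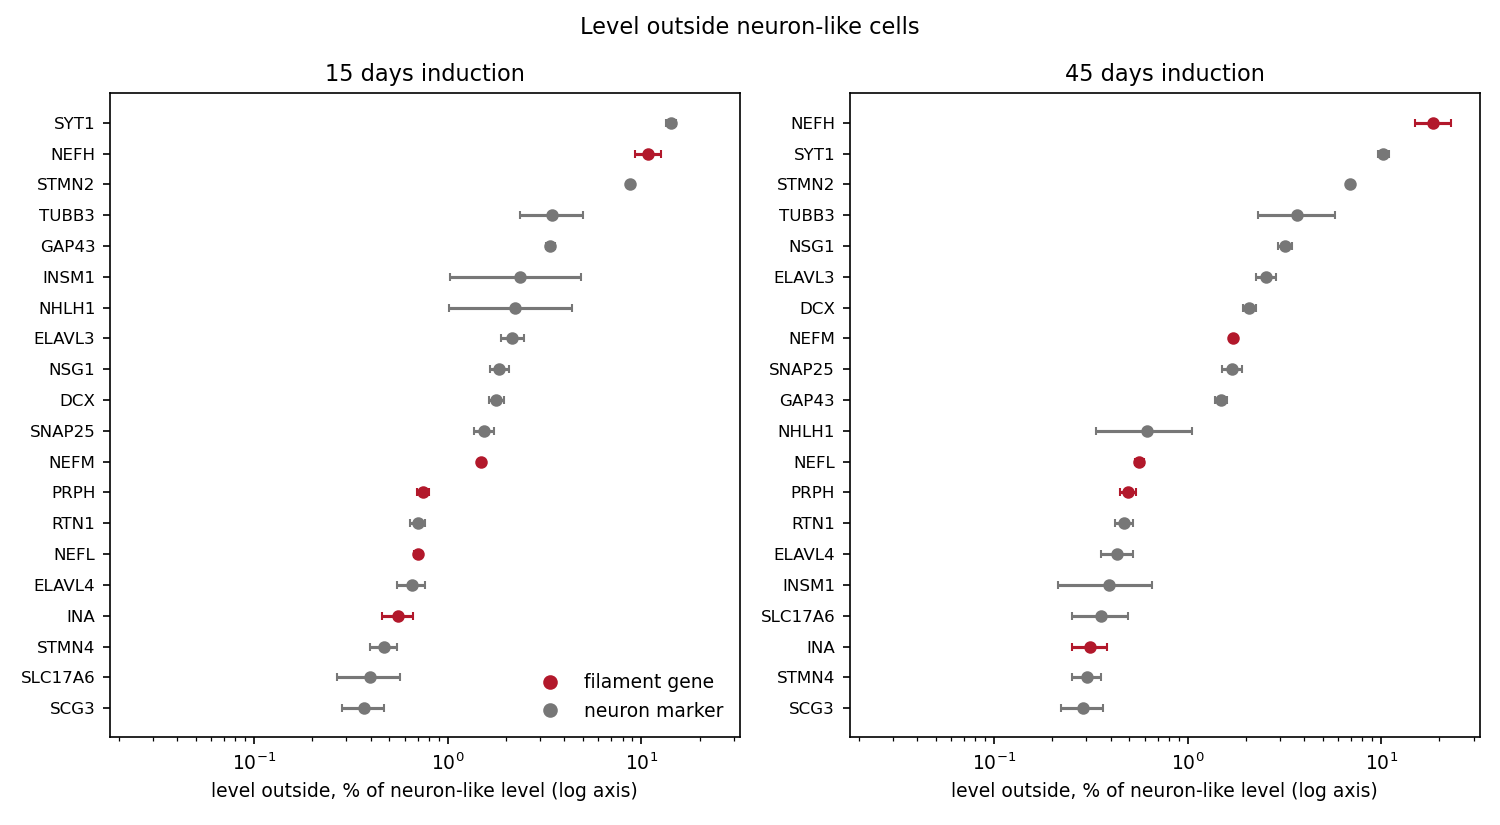
Level outside the neuron-like class as a percentage of the level in neuron-like cells, on a log axis, for the 5 filament genes and the 15 neuron markers in the 2 induced libraries, with 95% counting intervals. NEFL, INA and PRPH lie under 1%, NEFM at 1.48% and 1.73%, and NEFH at 10.8% and 18.4%.

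NEFH had a different distribution from the other members. Without induction it was at 4.15 CPM in epithelial-like, 4.71 CPM in haematopoietic-like, 7.30 CPM in mural-like, 7.39 CPM in mesenchymal-like, 8.55 CPM in endothelial-like and 8.79 CPM in cycling cells, a narrow range compared with that of NEFM. Outside the neuron-like class its ratio to the uninduced library was 1.07 (0.916 to 1.25) at 15 days and 0.995 (0.858 to 1.15) at 45 days, and both intervals include 1. Its level outside the class was 10.8% and 18.4% of the neuron-like level.

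Pearson correlations of log levels across 70 profiles, each a cluster in a library, were used to find the genes most like each member, as a description. The profiles share libraries and depth, and neuron-like clusters set most of the range. The nearest genes to NEFL were GNG3 (0.912), RTN1 (0.906), TTC9B (0.902), GNAO1 (0.90) and STMN4 (0.895). Those nearest to NEFM were GNG3 (0.863), DCX (0.853), ATP6V1G2 (0.835), MIAT (0.826) and PODXL2 (0.822). For INA they included TTC9B (0.972), NSG2 (0.965), FAM57B (0.965) and ATP2B2 (0.964), and for PRPH RTN1 (0.945), TTC9B (0.930), GNG3 (0.926) and STMN4 (0.924). DCX is a microtubule-associated protein of migrating neurons, and STMN4 is a microtubule regulator of the stathmin family. NEFH had no gene as close, with MGAT5B (0.748), FAM131B (0.722), LRRC55 (0.719), MARCH11 (0.716) and SULT4A1 (0.716). Among the members, NEFL and PRPH (0.946) and INA and PRPH (0.926) were close, whereas NEFH with the others gave 0.626 to 0.682.

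In the 22 profiles of the uninduced library, a search chosen after its values had been seen, other genes were nearest. They were TRIL (0.895), DNM3OS (0.883), C1QTNF4 (0.872), HOXA11 (0.858) and FNDC5 (0.851) for NEFM, and GPM6B (0.838), MAB21L2 (0.830) and NEGR1 (0.829) led for NEFL. HOXA11 is a patterning factor of limb and urogenital mesenchyme. NEFL and NEFM had a correlation of 0.812 with each other.

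A list of 17 partner genes held linkers, turnover factors, kinases, microtubule proteins and motors, not only genes that act on neurofilaments. In the comparison of neuron-like with other cells, 14 of them reached the floor in each library. Of the 14, 12 were at least 2-fold higher in each, against 25.9% and 28% of all genes at the floor. Several of them, KIF5A among them, reached the floor only through the neuron-like cells and had to differ. Their median log2 difference was 2.87 at 15 days and 3.31 at 45 days, against 0.29 and 0.41 over all genes. MAP1B, which links microtubules and other cytoskeleton, was at 4007 and 3826 CPM in neuron-like cells and 172 and 168 CPM in others. KIF5A, the kinesin heavy chain known to carry neurofilaments, was at 209 and 207 CPM, against 2.11 and 1.09 CPM. UCHL1, a neuronal ubiquitin hydrolase, was at 1333 and 1169 CPM, KIF5C at 721 and 817 CPM and MAPT, which encodes tau, at 460 and 394 CPM. HSPB1, a small heat shock protein that binds intermediate filaments, was lower in neuron-like cells, at 0.351-fold and 0.370-fold, and KIF5B was 0.438-fold at 15 days. Between 45 and 15 days within neuron-like cells, 15 listed genes were at the floor, none was 2-fold higher or lower, and their median was -0.07.

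Of 9 other intermediate filament genes, 3 reached the floor. VIM, the vimentin of mesenchymal cells and early neurons, was at 1868 CPM in neuron-like and 5273 CPM in other cells at 15 days, and at 1709 and 6269 CPM at 45 days. LMNA, the lamin A/C of the nuclear envelope, was at 21 against 118 CPM and 26.2 against 135 CPM. NES, the nestin of neural progenitors, was at 43.5 against 101 CPM at 15 days and at 82.4 against 76.6 CPM at 45 days. GFAP, the astrocyte filament, had 0 UMIs in neuron-like cells of both libraries. Markers of other cell types were present in the neuron-like class at low summed levels. Endothelial markers summed to 67.7 CPM at 15 days and 44.8 CPM at 45 days, with 7 and 8 of 11 at 1 CPM or more, mural markers to 264 and 140 CPM, mesenchymal markers to 95.3 and 194 CPM, glial markers to 14.3 and 10.3 CPM and neural progenitor markers to 9.57 and 18.6 CPM. Neuroendocrine markers, several of which neurons share, summed to 2172 and 1635 CPM with 6 of 6 present. Their part in the filament levels was not tested.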

How the data were processed

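Single-cell 3′ RNA libraries (Chromium v3 chemistry, Chip B) were made from organoids that had been dissociated (30 min in papain, 20 U/ml) and filtered at 40 µm, per the labels' protocols. The deposited values are UMI counts per gene and barcode, made by the authors with Cell Ranger 3.0.0 on GRCh38, per the submitters' processing notes; the matrix headers, per the file headers, name version 3.0.1. The annotation used for counting and its use of strand were not given in the sources used here; GENCODE 29 held 33456 of 33538 gene identifiers.

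Kept barcodes had 1000 UMIs and 500 genes or more and a mitochondrial share up to 20% (86.6%, 88.9% and 89.6%), and predicted doublets (8.18%, 4.77% and 8.62% of these) were removed by the share of simulated doublets among 50 neighbours. The 3 libraries were clustered together from 2000 variable genes, 30 principal components and 15 neighbours with the Leiden method at resolution 1.0, giving 25 clusters (Python 3.11.15, numpy 2.4.6, scipy 1.17.1, scikit-learn 1.9.0, leidenalg 0.10.2). The 5 filament genes were left out of the variable genes and the markers. Clusters were named from marker lists. The thresholds for naming were set after the data, cluster levels of the 5 genes included, had been seen, and they left clusters 4 and 24 unnamed, together 3.46%, 14.6% and 6.32% of cells, of which cluster 4 made up 2.47%, 13.4% and 6.09%. The members and gene lists were chosen with earlier results of these data known.

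Counts were summed per library, class or cluster and divided by the summed total (CPM). Intervals are exact Poisson for CPM, Clopper-Pearson for shares and conditional binomial for ratios, at 95%, and cover counting error only. The genes named as most like a member were the 5 with the highest correlation among genes reaching 20 CPM, by rule; 1 of these genes is not reported here. The summing and ratio steps were tested on simulated data. With 1 library per group no test was run and no replicate could be left out. Columns of unassigned samples numbered 0. Alternatives were other filters, doublet treatment, scaling, class definitions and thinning depths.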

Additional observations from a re-analysis of the deposited data

Results flagged for a closer look

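INA, the alpha-internexin gene, went opposite ways in the 2 neuron-like clusters between 45 and 15 days: its ratio was 0.751 in cluster 20 and 1.26 in cluster 21. The difference between the clusters was not tested, since each library is 1 sample.

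Filament UMIs were also found in data outside the comparisons. In barcodes that failed the quality filter the 5 genes summed to 1991 CPM at 15 days (659 barcodes) and 1800 CPM at 45 days (1121 barcodes), against 35.3 CPM (27.5 to 44.6) in 1374 such barcodes without induction. The kept cells of the same libraries had 2578, 930 and 101 CPM at 15 days, at 45 days and without induction. These differences between libraries were not tested. With 500 UMIs and 250 genes as the minimum, neuron-like cells numbered 343 at 15 days and 394 at 45 days, against 302 and 295 with the main filter.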

How the results depend on the processing

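No paired analysis was possible because each group is 1 library, and for the same reason no replicate could be left out. Log2 ratios of the summed members, which were 3.14 (45 days against none), 4.61 (15 days against none) and -1.47 (45 against 15 days), were 3.20 for the first and -1.43 for the last with no filter, 3.19 and 4.66 for the first pair with 1 CPM added, 3.07, 4.49 and -1.42 with median-of-ratios scaling, 4.52 and -1.41 for the last pair with no doublet removal and -1.48 for the last without the top cell. Within neuron-like cells the sum for 45 against 15 days (-0.47) was -0.48 with 500 UMIs and 250 genes as minimum, -0.57 with no doublet removal, -0.48 with the members among the variable genes, -0.37 with neurons defined by 5 or more markers, -0.90 as a mean over cells, -1.55 in cluster 20 and -0.21 in cluster 21. INA there changed sign, to -0.24 as a mean over cells and -0.40 in cluster 20. The level outside neurons (1.13% at 15 and 1.12% at 45 days) was 1.29% and 1.10% with 5 or more markers, 1.71% and 2.14% as a mean over cells, and at 45 days 1.16% with the lower minimum and 1.24% with no doublet removal. The share of thinned neurons with a member (99.2% and 89.7%) was 100% and 97.9% with 5 or more markers, 100% at 15 days thinned to 4000 and 84.4% at 45 days thinned to 1000 UMIs. The ratio of NEFM in mesenchymal-like to endothelial-like cells without induction (8.71) was 63.7 without cluster 18, 12.5 without the top cell of each class and 5.48 with no doublet removal. With a floor of 20 CPM, genes at least 4-fold higher numbered 27 (14 at 50 CPM) at 45 days and 98 (48) at 15 days against none, and for 45 against 15 days 2 (1) were higher and 28 (17) lower. The alternatives for NEFM in mesenchymal-like cells, and clusters 20 and 21 alone, were chosen after seeing the data. The cause of each difference was not tested. Depth limits INA without induction (5 UMIs) and NEFH in cluster 20 (11 UMIs).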
